A study of Danio rerio with 8 samples.

Results

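The protocadherin genes described here are 10 of the 1293 rows of a table of genes that the study's authors had selected as different between iqgap1 mutant and wild-type zebrafish embryos. All rows whose symbol begins with pcdh were taken, 12 in all, and the 10 with the highest mean over the 8 libraries were kept. The selection of the table used the contrast between mutant and wild type, so every difference between the groups given below is a description and none is offered as a test. Libraries came from 4 pools of wild-type embryos and 4 pools of iqgap1-/- embryos that showed hemorrhage, all whole embryos at 53 hours post fertilisation. A pool held 20 embryos according to the design text, but the extraction protocol speaks of single larvae, and this was not resolved. No allele, strain or transgene is named in the labels, and nothing says whether the wild-type embryos were siblings of the mutants. Since each mutant pool was chosen for hemorrhage, the genotype and the hemorrhage cannot be told apart. Nothing says that the pools came from separate clutches, so the spread between pools may be technical.

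Protocadherins are cadherin-type adhesion molecules of the cell surface, and most are known from the nervous system. The clustered protocadherins lie in tandem arrays in which each gene has its own large first exon, which encodes the extracellular domain, the membrane span and part of the cytoplasmic tail. In the alpha and gamma groups this variable exon is spliced to a few constant exons that all genes of the group share. Each variable exon has its own promoter, and in the mouse the choice among promoters, which depends on CTCF and cohesin, gives single neurons different sets of protocadherins. The proteins bind their own kind on other cells, which lets neurites of the same neuron recognise each other. Zebrafish have 2 such arrays, named pcdh1 and pcdh2, each with alpha-type (a) and gamma-type (g) genes.

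By its symbol, every listed protocadherin was of this clustered kind. In the RefSeq annotation of GRCz12tu, 44 of 63 symbols beginning with pcdh belong to the 2 arrays, and 0 of the other 19 were in the table. The table holds 1293 of the 26889 genes the authors adjusted over, a number inferred from their p-values. The absence of these 19 is therefore not read as a result. Of the 10 members, 5 are pcdh1g genes (pcdh1g11, pcdh1g14, pcdh1g18, pcdh1g26 and pcdh1g33), 3 are pcdh2g genes (pcdh2g7, pcdh2g10 and pcdh2g12) and 2 are pcdh2ab genes (pcdh2ab2 and pcdh2ab7). The pcdh1 array lies on chromosome 10 of that assembly and the pcdh2 array on chromosome 14, whereas iqgap1 lies on chromosome 7.

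The shared exons limit what a count of 1 gene means. RefSeq gives 14 of 15 annotated pcdh1g genes the same boundary at 1 side of the gene, as it does for 7 of 7 pcdh2ab genes and 11 of 14 pcdh2g genes. These boundaries are those of GRCz12tu, while the submitters' processing notes name danRer11. The gene models behind the counts may therefore differ from them. Reads from shared exons cannot be given to a single gene, and RSEM, which the submitters' processing notes name, divides such reads among genes and then reports fractional counts. Of the members' 80 expected counts, 78 were fractional (97.5%), against 4421 of 10152 nonzero values in the whole table (43.5%). The only whole values were 1 of 8 for pcdh1g11 and 1 of 8 for pcdh1g18. Each value below is therefore an estimate that depends on how reads were shared out, and neither the strand setting nor the annotation is given in the labels.

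Names add a further limit, because symbols in these arrays are used for more than 1 gene. An Ensembl identifier stood beside 6 of the 12 rows. A table of current names gave 4 of these the same symbol, gave the identifier of pcdh2ab2 (ENSDARG00000099468) a clone-based symbol, and did not hold that of pcdh1g11 (ENSDARG00000101665). RefSeq lists pcdh1g18 also as a synonym of pcdh1g11, and pcdh1g26 as a synonym of pcdh1g9, so which locus the rows pcdh1g11, pcdh1g18 and pcdh1g26 stand for is not certain. Symbols of 9 of the 12 rows were found in RefSeq; pcdh1g14, pcdh1g33 and pcdh2g10 were not.

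The mutated gene was looked at first. iqgap1, a scaffold of the actin cytoskeleton and cell junctions, had 2115 to 2212 normalized counts in the wild-type pools and 902 to 1245 in the mutant pools, so the labels and the transcript went together. Normalized counts are expected counts divided by a size factor for each library. They are not per length, so levels are compared between pools and not between genes. The scale between the groups was set from the authors' fold changes, and every comparison of a mutant pool with wild-type pools rests on it. Under the other scales described below (RLE and TMM) every mutant pool stands lower against the wild-type pools. The library totals over the listed rows ran from 354272 to 552331 and do not give the sequencing depth, which is unknown here. No library was a copy of another, since any 2 libraries within a group differed by a chi-square of at least 2.52 per degree of freedom.

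Protocadherins differed in both directions within the same array. Of the 10 members 7 were higher and 3 lower in the mutants, where 58.7% of the genes tested were higher, with 3 higher and 2 lower among pcdh1g genes, 2 higher and 1 lower among pcdh2g genes, and both pcdh2ab genes higher. At an adjusted p under 0.05, edgeR's quasi-likelihood test called 5 of the 10, beside 66.8% of the 1126 genes tested. The calls were 4 higher (pcdh1g11, pcdh2g7, pcdh2g12 and pcdh1g26), beside 37.5% of the genes tested, and 1 lower (pcdh1g18), beside 29.3%. Leaving out wild-type pool 1 or 4 or mutant pool 2 or 3 left 3 calls, and leaving out mutant pool 1 gave 7. The calls of pcdh1g26 and pcdh2g12 were also lost under other scales between the groups, and each was lost when most single libraries were left out; that of pcdh1g18 was lost without mutant pool 2. All 10 passed the filter on low counts. Nothing is read from these counts, since the rows had been selected on this contrast. On the scale set from the authors' fold changes, the mutant and wild-type pools did not overlap for 7 of the 10, beside 90.7% of the genes tested. Overlap under other scales was not counted. The median log2 fold change of the members, mutant over wild type, was 0.84, and that of all genes tested was 0.70.

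**Figure D1:**
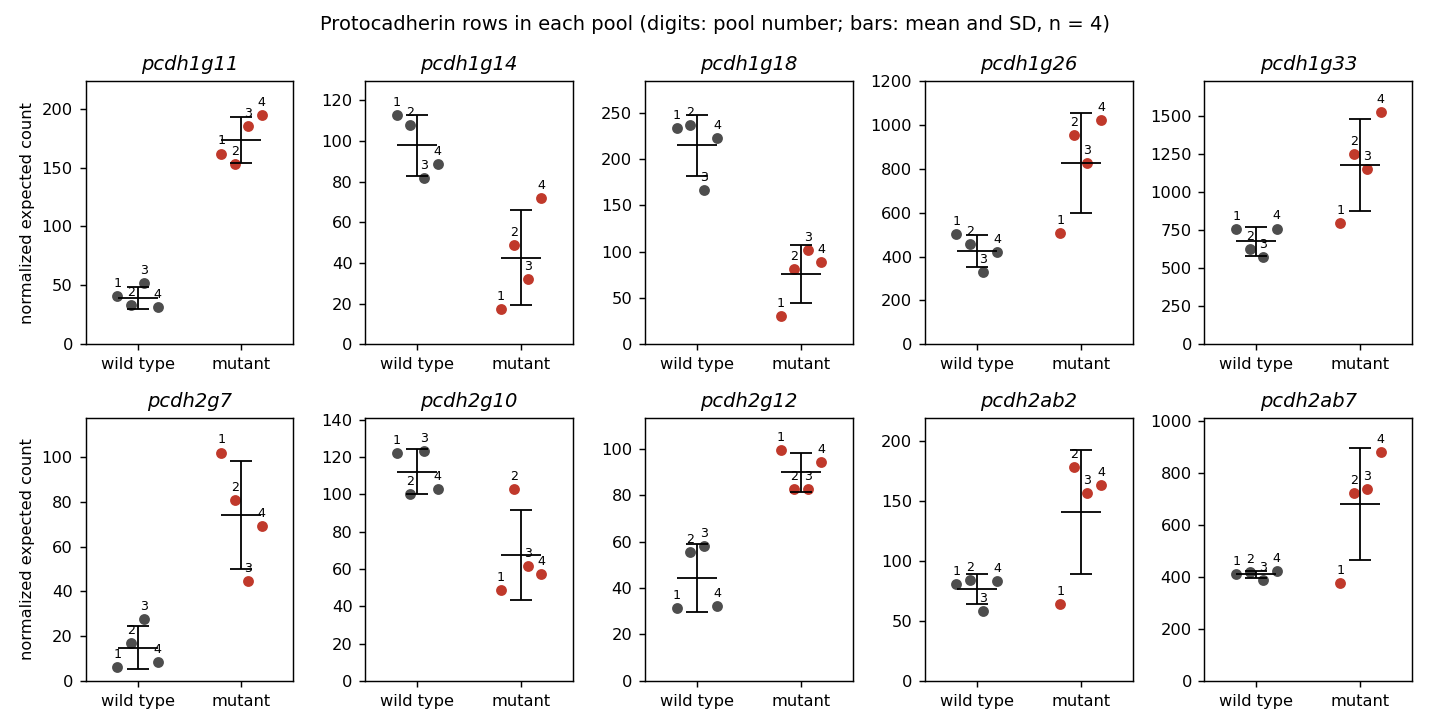
Normalized expected counts (vertical axes, from 0) of the 10 protocadherin genes in each of 4 wild-type (grey) and 4 mutant (red) pools, with pool numbers beside the points and the mean and SD as bars. The 4 mutant pools of pcdh1g11 lie between 153 and 195, above all wild-type pools (31.3 to 51.8), while mutant pool 1 of pcdh2ab7 (375) lies below them.

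Among the pcdh1g genes, pcdh1g11 differed most between the groups on the high side. It had 41.3, 33.2, 51.8 and 31.3 normalized counts in wild-type pools 1 to 4 and 162, 153, 185 and 195 in mutant pools 1 to 4. The mutant pools were close to each other and all far above the wild-type pools. The means were 39.4 ± 9.33 and 174 ± 19.4 (SD, n = 4 each). The log2 fold change was 2.13 ± 0.18, or 4.39-fold. Here and below it is given with an SE derived from the F statistic of the quasi-likelihood test. The quasi-likelihood test gave an adjusted p of 0.000176. The authors' deposited table gives 2.13, with an adjusted p of 2.5e-23 from a test that is not stated. The match of the 2 fold changes follows from the scale, which was set from the authors' values.

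The row pcdh1g18 went the other way. If its symbol is matched to RefSeq directly it follows pcdh1g11 in the array, with pcdh1gb9 and a pseudogene annotated in between, but the shared synonym leaves that place uncertain. It had 233, 236, 166 and 223 counts in the wild-type pools and 30.6, 81.4, 102 and 88.7 in the mutant pools. All mutant pools were lower, and mutant pool 1 was lowest by a wide margin. With means of 215 ± 33.1 and 75.7 ± 31.2 (SD, n = 4 each), its log2 fold change was -1.51 ± 0.29, or 2.85-fold lower. A second gene of the array, pcdh1g14, was also lower, with 113, 108, 82.0 and 88.6 counts in the wild-type pools and 17.4, 49.0, 32.3 and 72.0 in the mutant pools. Its groups did not overlap, but mutant pool 4 came near the lowest wild-type pool, and the log2 fold change was -1.20 ± 0.33 (not called; authors' deposited adjusted p 0.0141). It was called with DESeq2, without mutant pool 4, and under other scales between the groups, where it was at -1.72 (RLE) and -1.59 (TMM).

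The remaining pcdh1g genes, pcdh1g26 and pcdh1g33, were the members with the most counts, so that counting error bears least on them. For pcdh1g26 the wild-type pools had 502, 457, 329 and 419 counts and the mutant pools 506, 954, 827 and 1022. For pcdh1g33 they had 757, 623, 572 and 761 against 794, 1254, 1151 and 1526. In both genes mutant pools 2, 3 and 4 stood clearly above wild type, while mutant pool 1 was only just above the highest wild-type pool. The log2 fold changes were 0.95 ± 0.21 and 0.80 ± 0.19, and without mutant pool 1 they were 1.13 and 0.95.

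In the pcdh2g group, pcdh2g7 and pcdh2g12 were higher in the mutants. pcdh2g7 had 6.39, 16.8, 27.6 and 8.36 counts in the wild-type pools and 102, 80.7, 44.5 and 69.1 in the mutant pools, a log2 fold change of 2.32 ± 0.40. The groups were apart, but the wild-type pools differed among themselves more than for any other member, with a coefficient of variation of 65.3%. pcdh2g12 had 31.3, 55.7, 58.3 and 32.1 counts in the wild-type pools and 99.6, 82.6, 82.7 and 94.5 in the mutant pools, a log2 fold change of 1.01 ± 0.22. Wild-type pools 2 and 3 were the higher wild-type pools for both genes.

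The third pcdh2g gene, pcdh2g10, was lower in most mutant pools. It had 122, 100.3, 123 and 103 counts in the wild-type pools and 48.5, 103, 61.7 and 57.2 in the mutant pools. Mutant pool 2 was at the wild-type level, so the groups overlapped, and the log2 fold change of -0.73 ± 0.22 was not called (authors' deposited adjusted p 0.0333). It was called without mutant pool 2, at -1.01. This gene and pcdh2g12 thus differed in opposite directions in pools 1, 3 and 4 while they share a group.

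Both alpha-type genes were higher in mutant pools 2 to 4 alone. pcdh2ab7 had 411, 418, 388 and 421 counts in wild type, the narrowest spread of any member (coefficient of variation 3.68%), and 375, 721, 739 and 881 in the mutants. pcdh2ab2 had 80.8, 84.2, 58.3 and 83.8 counts in the wild-type pools and 64.1, 179, 157 and 164 in the mutant pools. In both genes mutant pool 1 lay within or below the wild-type range and the other mutant pools far above it. The log2 fold changes were 0.73 ± 0.21 and 0.88 ± 0.28, neither called; without mutant pool 1 they were 0.93 and 1.12, and both were called. In the authors' deposited table their adjusted p-values were 0.021 and 0.0495.

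The 2 rows left out by the limit of 10 were also pcdh2g genes. The member with the lowest deposited mean was pcdh2g7 (43.5), and just below it pcdh2g1 had a mean of 39.9, with 28.2, 19.1, 30.2 and 20.5 normalized counts in the wild-type pools and 43.9, 61.6, 71.2 and 57.1 in the mutant pools. pcdh2g3 had a mean of 13.9. It had 23.7, 29.4, 18.4 and 23.5 counts in the wild-type pools and 4.82, 1.92, 0 and 1.48 in the mutant pools. All mutant pools were thus far lower, but the counts were few in both groups. In RefSeq pcdh2g3 is 1 of the 3 pcdh2g genes annotated without the shared boundary. Even so, all 7 of its nonzero expected counts were fractional.

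Ratios between genes of the same library need no scaling between libraries. The count of pcdh1g11 was 0.177, 0.14, 0.312 and 0.14 of that of pcdh1g18 in the wild-type pools and 5.3, 1.88, 1.81 and 2.19 times it in the mutant pools. The ranges were far apart: the mean log2 ratio was -2.46 ± 0.54 over wild-type pools and 1.33 ± 0.73 over mutant pools (SD, n = 4 each), a difference of 3.79. In the other array the ratio of pcdh2g7 to pcdh2g10 lay between 0.0524 and 0.224 in wild type and between 0.722 and 2.11 in the mutants. Each of these ratios sets a row listed as higher over a row listed as lower, so the selection largely fixed their separation. By contrast, the ratio of pcdh1g26 to pcdh1g33 overlapped between the groups (0.551 to 0.734 and 0.637 to 0.761), as did that of pcdh2ab2 to pcdh2ab7 (0.15 to 0.202 and 0.171 to 0.248) and that of pcdh2ab7 to pcdh1g33 (0.542 to 0.677 and 0.473 to 0.642). These 4 genes of the 2 arrays thus stayed in similar proportion to each other in all 8 pools, mutant pool 1 included. All 4 were listed as higher, so like ratios between the groups also follow in part from the selection.

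Among the counts of the 5 pcdh1g rows, the share of pcdh1g11 went from 2.06% to 4.31% in wild type to 6.13% to 10.7% in the mutants. That of pcdh1g18 went from 13.8% to 16.2% down to 2.03% to 4.44%, and that of pcdh1g14 from 5.82% to 7.39% down to 1.15% to 2.48%. Their sum was higher in the mutants in 3 of 4 pools: 1647, 1458, 1201 and 1524 normalized counts in the wild-type pools, and 1510.2, 2491, 2297 and 2903 in the mutant pools, where mutant pool 1 lay within the wild-type range. Among the 3 pcdh2g rows the share of pcdh2g10 lay between 58.0% and 76.4% in wild-type pools and between 19.4% and 38.7% in mutant pools, while their sum differed less, 171 ± 27.8 against 232 ± 34.1 (SD, n = 4 each). A share depends on gene length as well as transcript number, so that only its difference between pools can be read. The sums hold only member rows, all selected on this contrast, so shares of rows listed as higher and lower had to shift. They do not give the division of counts within a whole array. In whole embryos, fewer cells of a type and less RNA per cell cannot be told apart.

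**Figure D2:**
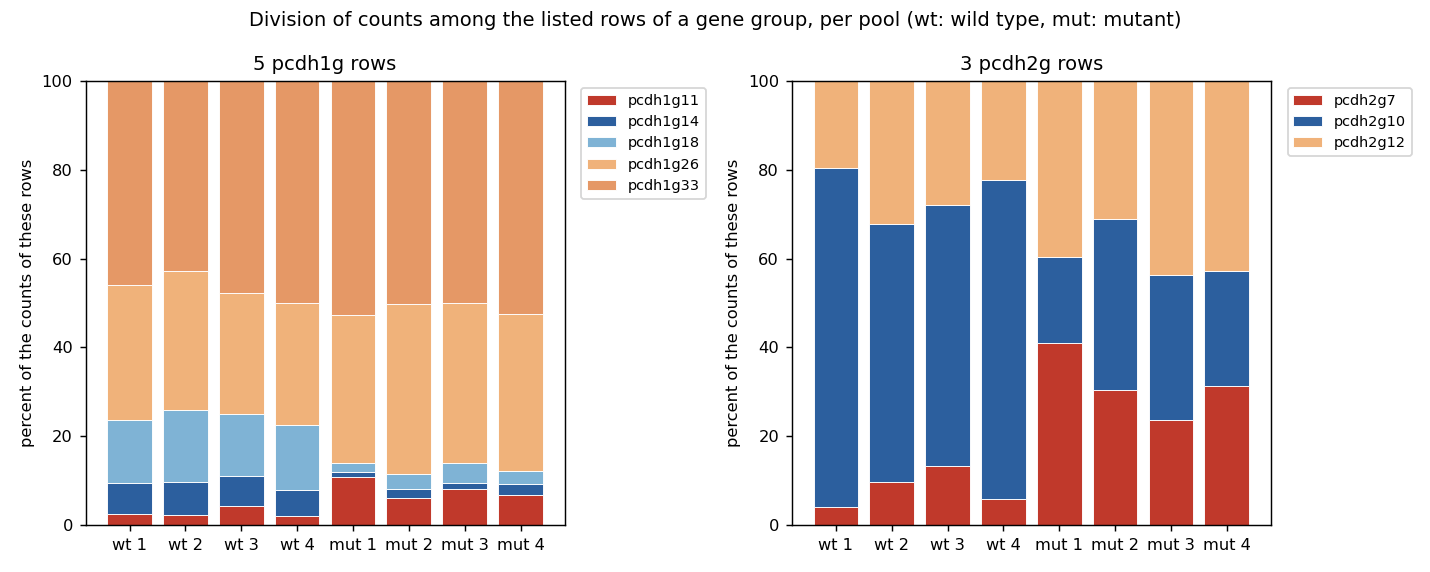
Percent of the summed expected counts of the 5 pcdh1g rows (left) and the 3 pcdh2g rows (right) that fell to each gene, 1 bar per pool. In every mutant pool the share of pcdh1g11 (6.13% to 10.7%) is above that in wild type and those of pcdh1g14 and pcdh1g18 below it, and pcdh2g10 holds 19.4% to 38.7% in place of 58.0% to 76.4%. Only rows selected on this contrast enter the sums, which largely fixed these shifts.

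Mutant pool 1 stood apart from the other mutant pools for pcdh1g26, pcdh1g33, pcdh2ab7, pcdh2ab2 and pcdh1g18, but not for the other members. It was the lowest mutant pool for 7 of 10, 4 of the 7 higher genes and all 3 lower ones, where it was lowest for 35.8% of the genes tested. It was the highest mutant pool for pcdh2g7 and pcdh2g12. Relative to the wild-type mean, this pool was at 0.24 for pcdh1g26, 0.23 for pcdh1g33, -0.13 for pcdh2ab7 and -0.26 for pcdh2ab2 on the log2 scale, while pools 2 to 4 lay between 0.76 and 1.26 for these 4 genes. For pcdh1g18 and pcdh1g14 it lay at -2.81 and -2.49, and the others between -1.60 and -0.44. pcdh1g11 did not follow this: its mutant pools lay between 1.95 and 2.30, with pool 1 at 2.04. A rank at the edge of its group was not particular to mutant pool 1. Wild-type pool 3 was the lowest wild-type pool for 6 of 10 members and the highest for 4, beside 29.1% and 24.7% of the genes tested. It lay at -0.37 for pcdh1g26, -0.25 for pcdh1g33, -0.08 for pcdh2ab7 and -0.40 for pcdh2ab2. For pcdh2g12 and pcdh2g7 it lay at 0.39 and 0.90.

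**Figure D3:**
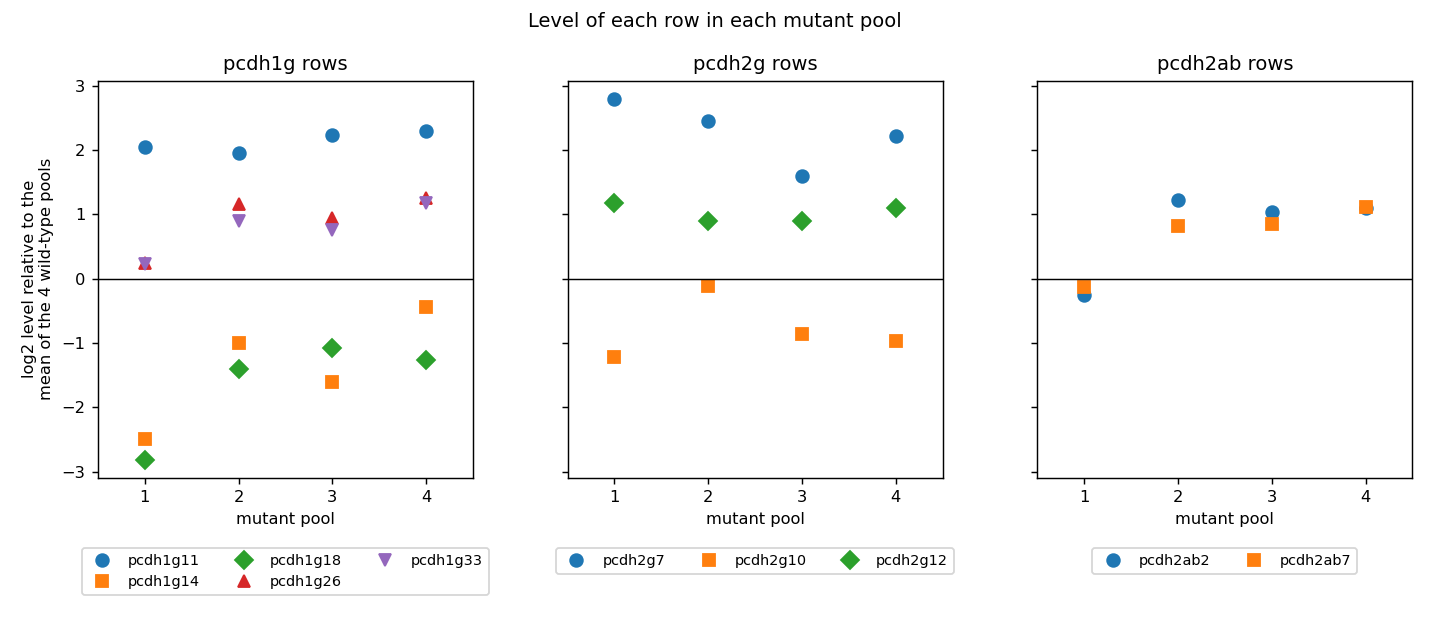
Log2 level of each member in mutant pools 1 to 4, relative to the mean of the 4 wild-type pools (line at 0), for pcdh1g, pcdh2g and pcdh2ab rows. Mutant pool 1 lies near 0 for pcdh1g26, pcdh1g33, pcdh2ab2 and pcdh2ab7 (-0.26 to 0.24) and below the other pools for pcdh1g14 and pcdh1g18. Levels are on the scale set from the authors' fold changes.

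With mutant pool 1 included, the mutant pools spread more than the wild-type pools for most members. The SD of log2(normalized count + 1) was larger in the mutants for 7 of 10 members, with a median of 0.48 against 0.25 in wild type. Over the 654 genes of the table with a mean of 50 or more, the median was 0.20 in both groups. These genes were not matched to the members by count, and the share of them with a larger SD in the mutants was not counted. The exceptions were pcdh1g11, pcdh2g7 and pcdh2g12, the members with the largest positive log2 fold changes. In the other 7 members mutant pool 1 was the lowest mutant pool, and the spread without it was not computed. Relative to the wild-type mean (log2), pcdh2ab2 was at -0.26 in mutant pool 1 and at 1.04 to 1.22 in pools 2 to 4. For pcdh1g14 mutant pool 1 was at -2.49, and pools 2 to 4 still ran from -1.60 to -0.44. pcdh2g7 had the widest wild-type spread (0.89) and pcdh1g14 the widest mutant spread (0.85).

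The size of each difference rests on the scale between the groups, which was set from the authors' fold changes. Median-of-ratios (RLE) scaling over the table moved the log2 fold changes by a median of -0.511 over genes, and TMM by a median of -0.381. All 10 members kept their direction under both. This was close to fixed by the selection, since rows were listed only from an absolute log2 fold change of 0.5856. pcdh1g26 and pcdh2g12 lost their calls under both: pcdh1g26 went from 0.95 to 0.43 with RLE and 0.56 with TMM, and pcdh2g12 from 1.01 to 0.50 and 0.63. pcdh1g14 and pcdh2g10 gained calls under both, pcdh2g10 at -1.26 and -1.12. The genes called under RLE and under TMM were thus pcdh1g11 and pcdh2g7, higher, and pcdh1g18, pcdh1g14 and pcdh2g10, lower. Over the table RLE called 113 genes higher and 465 lower, and TMM 162 and 451. The uncalled pcdh2ab7, pcdh1g33 and pcdh2ab2 were at 0.20, 0.27 and 0.34 with RLE, while pcdh1g11 was at 1.62 and pcdh1g18 at -2.04.

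**Figure D4:**
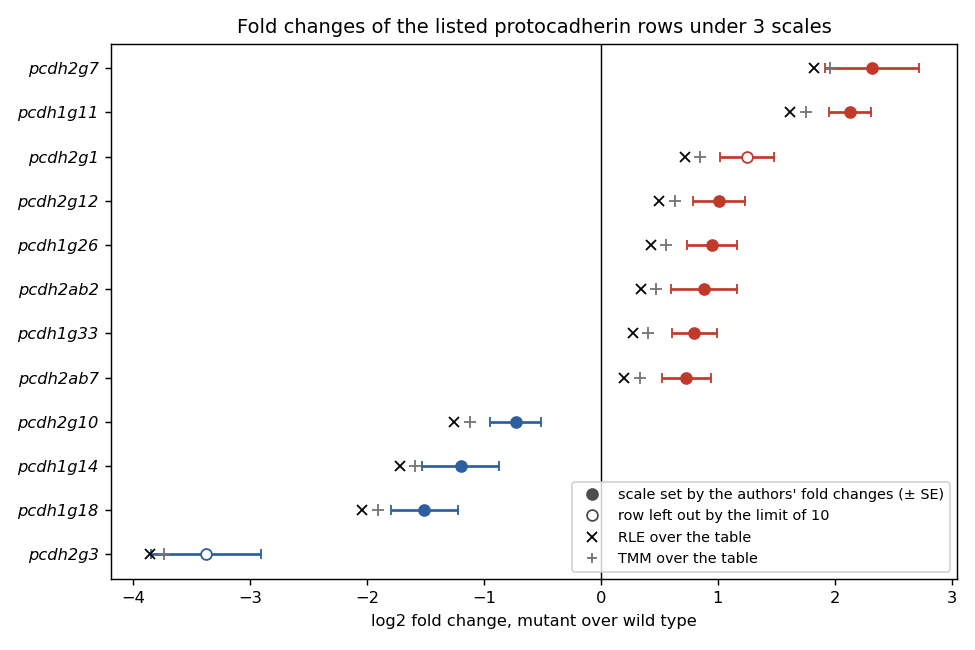
Log2 fold change (mutant over wild type, horizontal axis) of the 12 listed protocadherin rows with its SE, with the values under RLE (crosses) and TMM (plus signs) scaling and the 2 left-out rows as open circles. Every row stays on its side of 0 under all scales, and pcdh2ab7 comes nearest to it (0.20 with RLE). The selection largely fixed this, as rows were listed only from an absolute log2 fold change of 0.5856.

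Genes with a like profile were sought among 504 rows with no colon in the symbol and a mean of 50 or more, by the root mean square difference of centred log2 profiles over the 8 libraries. For pcdh2ab7 the nearest was cntnap2a (0.14), a contactin-associated protein gene of neurons, followed by timp4.1 (0.14), a metalloproteinase inhibitor gene, and fam83c (0.15). fam83c was also nearest to pcdh2ab2 (0.12) and second for pcdh1g26 (0.16), after the synaptotagmin gene syt13 (0.16). For pcdh1g33 the nearest were the accession-named rows BX323087.1 (0.10) and CABZ01046954.1 (0.16), and then cntnap2a (0.17); among the members it was nearest to pcdh1g26 (0.15).

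The strongly higher pcdh1g11 was nearest to the complement factor H-like gene cfhl2 (0.22), sccpdha (0.24) and the embryonic globin gene hbbe1.1 (0.27). pcdh2g12 was nearest to gp1bb (0.15), a platelet glycoprotein subunit gene in mammals, rell2 (0.20) and the embryonic globin gene hbbe1.3 (0.20). On the lower side, pcdh1g18 was nearest to znf1093 (0.23), BFSP1 (0.24), named after a lens filament protein, and glb1l (0.26). BFSP1 (0.31) and znf1093 (0.32) were also the nearest to pcdh1g14, and CABZ01102115.1 (0.33) the next. pcdh2g10 was nearest to lyrm5b (0.18), ttc38 (0.18) and BX957317.1 (0.20). pcdh2g7 had too few counts for this search. All these rows had been selected on the same contrast, so a like profile follows in part from that selection.

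Other genes of protocadherin biology were looked for in the table, which holds 1293 of the inferred 26889 genes the authors adjusted over. At that share most genes of any list would be absent, so nothing is read from how many were present. Of 42 further genes of the cadherin superfamily and close relatives only cdhr5a, a protocadherin-like gene of epithelial brush borders in mammals, was present. It had 8.57 ± 0.992 normalized counts in the wild-type pools and 17.2 ± 4.51 in the mutant pools (SD over 4 pools each), and its log2 fold change of 1.00 ± 0.27 was not called. Of 43 genes for cytoplasmic partners of protocadherins and catenins only iqgap1 itself was present, called and lower. Of 23 genes that regulate the arrays, among them ctcf, the cohesin subunits and smchd1, 0 were present. Genes outside the table were not analysed here, so nothing can be said of their levels.

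Markers of other tissues were looked at in the same way. Of 21 neuron markers, 19 of neural progenitors and glia, 13 of epidermis and 11 of endothelium, 0 were in the table. Nothing is read from this, as only 1293 of the inferred 26889 genes were listed, and the amount of neural tissue in the pools was not measured. All 12 erythrocyte markers were present and higher in the mutants, 11 of them called, with a median log2 fold change of 1.43. Over all genes tested, 37.5% were called higher and the median was 0.70. These rows too had been selected on this contrast, so their direction and calls are a description. Each of the 11 called markers was highest in mutant pool 1. The uncalled klf1 had 35.1 counts there, within its wild-type range (28.9 to 46.9). The summed normalized counts of the 12 markers, most of them from globin genes, were 45268 to 75829 in the wild-type pools and 145860.2 to 194086 in the mutant pools. The highest sum was that of mutant pool 1. On the scale set from the authors' fold changes, this was the pool in which pcdh1g26, pcdh1g33 and the pcdh2ab genes were near wild type. The part of red cell RNA in these protocadherin values was not tested.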

How the data were processed

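Per the labels' protocols, RNA of whole embryos was depleted of ribosomal RNA and libraries were made with random priming. Trimmomatic, STAR 2.7, RSEM and danRer11 appear in the submitters' processing notes without roles. The file headers name, for each gene, the authors' log2 fold change, the same as a ratio (linear fold), a p-value and its adjusted form. The tool behind them is not stated. All rows had adjusted p-values up to 0.04997 and absolute log2 fold changes from 0.5856. The deposited values per library are expected counts, each multiplied by 1 of 8 factors (0.9784 to 1.0252) that run over the cells of a row in cyclic order. Dividing by them made all 10152 nonzero values multiples of 0.01.

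Recovered expected counts were rounded and fitted over the whole table with edgeR 4.0.16 (R 4.3.3; filterByExpr, minimum count 10, minimum total 15; glmQLFit, glmQLFTest). Size factors were medians of ratios within each group, over genes averaging at least 50 counts. A single offset between the groups (-0.231, log2) brought fold changes to the authors' scale, after which 95.7% of 648 genes lay within 0.01 of theirs. Benjamini-Hochberg adjustment ran over 26889 genes, and the 25596 not listed were given a p of 1. The number 26889 is inferred from the ratio of adjusted to unadjusted p in the authors' row of smallest p. This takes their adjustment to be Benjamini-Hochberg too. Means ± SD use unrounded counts. The scripts were tested on simulated data. Alternatives were DESeq2 1.42.0, RLE, TMM, fits with no filter or with a replicate block, leaving out each library, deposited values as they stand and a threshold of 0.01.

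Named genes were the members and the rows left out, iqgap1, the 3 rows of nearest profile to each member averaging at least 50 counts, and list genes present in the table. The members, lists and tests were chosen with earlier results of these data known. Sequences of the members are not shown.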

Additional observations from a re-analysis of the deposited data

Results flagged for a closer look

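For each of the 12 protocadherin rows, Dixon's test was applied to the highest and lowest of the 4 pools of each group. Among these 24 groups of values chance would give about 1.2 outlying pools, and 1 was found. Wild-type pool 3 had 58.3 normalized counts of pcdh2ab2, below 80.8 to 84.2 in the other wild-type pools. The low values of mutant pool 1 for pcdh1g26, pcdh1g33 and the pcdh2ab genes did not pass this test. The outcome can depend on whether counts or log2 counts are used, and only 1 outcome is given here. On the log2 scale pcdh2ab2 was at -0.26 in mutant pool 1 and at 1.04 to 1.22 in the other mutant pools, relative to the wild-type mean.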

How the results depend on the processing

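All 10 protocadherin genes kept the direction of their difference under each of the 14 alternatives run. The selection largely fixed this in advance. Rows were listed only from an absolute log2 fold change of 0.5856, while RLE moved fold changes by a median of -0.511. The call was the same in 108 of 140 cases, lost in 20 and gained in 12. Of the 10 genes 5 were called. The replicate block called 3 (pcdh1g26 and pcdh2g12 lost), and a threshold of 0.01 called 2; leaving out 1 library gave between 3 and 7, with 3 called without wild-type pool 1 or 4 or mutant pool 2 or 3, and 7 without mutant pool 1. DESeq2 called 7 of the 10, and 870 of all rows. Of all rows, 752 were called, 433 at a threshold of 0.01, and between 538 and 799 with 1 library left out; the replicate block called 542. Whether the replicate numbers pair the pools is not known. The correlation of deviations ran from -0.24 to 0.11 between same-numbered pools and from -0.37 to 0.30 between the others. With 4 pools per group these values cannot decide it. RLE called 113 genes higher and 465 lower in place of 422 and 330. The division of reads between genes of an array, which the deposited counts already contain, could not be varied, and low counts limit pcdh2g7 most.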
